A study of Mus musculus with 6 samples.

Results

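The proteasome genes were defined by their names, as every probe whose platform symbol begins with Psma, Psmb, Psmc, Psmd, Psme, Psmf or Psmg followed by a digit. The rule found 68 probes of 42 genes among 15550 probes with 1 gene symbol. All 68 were bright enough to be tested, that is, at least 3 of the 6 arrays detected them at a p under 0.05. The RefSeq table lists 51 protein-coding genes that meet the rule, and the other 9 (Psma1, Psma3, Psma6, Psmb11, Psmc6, Psmd3, Psme2b, Psmf1 and Psmg4) are not analysed here. The rule also caught Psmc3ip and Psme3ip1, whose names derive from partners of a subunit and an activator and which encode no subunit.

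Total RNA came from mouse cells, with 3 samples labelled as an immortalized line of the anterior limb bud and 3 labelled as one of the posterior limb bud. Both lines are described as limb mesenchyme of E10.5 embryos, and both express a temperature-sensitive SV40 T antigen, which drives cell division. Each sample was read on 1 single-colour Illumina bead array. No label gives a treatment that differs between the lines, and each group stands for 1 line. Whether the 3 samples of a line were separate cultures is not stated, and the spread behind each p-value may therefore be technical.

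The 6 arrays detected between 16052 and 18657 probes. The labelled cell type was in doubt in these data. The pluripotency markers Pou5f1, Nanog, Sox2, Zfp42, Esrrb and Dppa5a were detected on all 6 arrays and were higher in the samples labelled anterior. Their levels in posterior were 1.69-fold (Dppa5a) to 27.8-fold (Pou5f1) lower, beside 21.5% of all genes called lower. Of 6 limb mesenchyme markers with a named probe, 3 were detected on all anterior arrays and 6 on all posterior arrays. All 6 were higher in posterior, beside 25.9% of all genes called higher. Pdgfra was not detected on any anterior array, so only the posterior arrays let it into the test. Differences ran from 2.53-fold (Tbx4, which 1 anterior array detected) to 43.3-fold (Meis2). The groups are therefore called by their labels. In bulk RNA, fewer cells of a type and less RNA per cell cannot be told apart.

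The proteasome degrades proteins that carry a ubiquitin chain. Its core is a barrel of stacked rings of alpha and beta subunits, and the catalytic sites lie in the beta subunits encoded by Psmb5, Psmb6 and Psmb7. A regulatory cap made of ATPase (Psmc) and other (Psmd) subunits binds, unfolds and feeds in the substrates. In cells exposed to interferon gamma, Psmb8, Psmb9 and Psmb10 replace the constitutive catalytic subunits and form the immunoproteasome, which is known for making peptides for MHC class I. Psme1 and Psme2 encode PA28 alpha and beta, a cap that opens the core without ATP, and Psme3 encodes the related nuclear activator PA28 gamma.

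The promoters of 5 members are printed as examples of inducible (Psmb8, Psmb9 and Psme1) and other (Psmb5 and Psme3) genes whose window holds a motif. They come from the RefSeq promoter table of build GRCm38.p6, whose windows run from 250 bases before to 50 bases after the gene start, and 35 of the 42 genes matched it. Capitals mark matches, on either strand, to any of 4 motifs. These are the antioxidant element TGACNNNGC, the CCAAT box CCAAT, the interferon-stimulated element (GAAA and GAAA parted by any 2 bases) and the gamma-activated site TTCNNNGAA. Each window shown holds 1 match because it was chosen so, while both windows of Psme2 and the window of Psmb10 hold 0.
Psmb8, chr17:34197945-34198244, plus strand: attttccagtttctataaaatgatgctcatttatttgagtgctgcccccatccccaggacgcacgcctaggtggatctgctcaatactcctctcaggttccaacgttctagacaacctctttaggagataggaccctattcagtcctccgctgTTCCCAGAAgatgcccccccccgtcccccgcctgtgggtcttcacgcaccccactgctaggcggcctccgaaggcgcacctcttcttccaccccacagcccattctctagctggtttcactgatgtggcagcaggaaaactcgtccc
Psmb9, chr17:34187281-34187580, minus strand: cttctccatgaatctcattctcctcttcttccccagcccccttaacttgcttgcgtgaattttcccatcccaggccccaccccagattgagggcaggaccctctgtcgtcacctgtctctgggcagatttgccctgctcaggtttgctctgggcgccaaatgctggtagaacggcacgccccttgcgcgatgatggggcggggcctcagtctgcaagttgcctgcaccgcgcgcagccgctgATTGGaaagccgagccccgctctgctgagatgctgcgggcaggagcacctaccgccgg
Psmb5, chr14:54617946-54618245, minus strand: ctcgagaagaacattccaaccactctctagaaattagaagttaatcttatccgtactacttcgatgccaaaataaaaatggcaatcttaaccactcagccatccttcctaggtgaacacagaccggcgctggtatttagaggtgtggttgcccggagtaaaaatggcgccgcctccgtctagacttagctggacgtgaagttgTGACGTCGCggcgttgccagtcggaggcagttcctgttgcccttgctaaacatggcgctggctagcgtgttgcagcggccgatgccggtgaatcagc
Psme1, chr14:55578244-55578543, plus strand: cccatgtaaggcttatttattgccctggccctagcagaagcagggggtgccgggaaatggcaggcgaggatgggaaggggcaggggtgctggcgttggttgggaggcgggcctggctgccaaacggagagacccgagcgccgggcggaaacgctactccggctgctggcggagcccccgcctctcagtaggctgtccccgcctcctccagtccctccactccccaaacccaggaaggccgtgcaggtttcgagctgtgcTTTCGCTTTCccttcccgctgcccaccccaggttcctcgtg
Psme3, chr11:101315963-101316262, plus strand: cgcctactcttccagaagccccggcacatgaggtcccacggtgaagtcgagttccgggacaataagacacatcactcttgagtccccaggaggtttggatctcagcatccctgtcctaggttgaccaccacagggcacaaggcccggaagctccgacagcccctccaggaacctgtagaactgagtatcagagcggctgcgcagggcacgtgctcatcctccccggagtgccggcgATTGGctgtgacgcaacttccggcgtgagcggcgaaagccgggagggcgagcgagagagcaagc

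The Psmb8 window held a gamma-activated site that begins 97 bases before the gene start. The Psmb5 window held an antioxidant element, the motif bound by NRF1 and NRF2, that begins 47 bases before the start. Psme1 had an interferon-stimulated element that begins 10 bases into the transcribed part. The Psmb9 window shares 275 bases with the window of Tap1, which encodes a peptide transporter of the MHC class I pathway and lies on the other strand. The 35 genes have 38 windows in the table. Of these, 13.2% held the antioxidant element, against 12.4% of all 32851 windows, and 31.6% held a CCAAT box, against 37.4%. The interferon-stimulated element was in 4 of the 38 (Psmb3, Psmd4, Psmd9 and Psme1), against 3.4%, and the gamma-activated site in 7.9% (Psmb8, Psmd2 and Psmg1), against 8.3%. These are matches of letters in the windows and not measured binding.

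Most proteasome genes differed little between the 2 groups of samples. Of the 42 genes, each read through its brightest probe, 5 were higher in posterior and 5 lower at an adjusted p under 0.05, and 32 did not pass. The limma fit called 47.4% of all 9908 genes tested, 25.9% as higher and 21.5% as lower, against 23.8% of the proteasome genes. Their median difference, posterior minus anterior, was -0.01 on the log2 scale, beside 0.03 for all genes. The genes that were higher were Psma7, Psmb2, Psmb8, Psmb9 and Psme2, and those that were lower were Psma8, Psmb5, Psmd14, Psme3 and Psmg1.

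**Figure D1:**
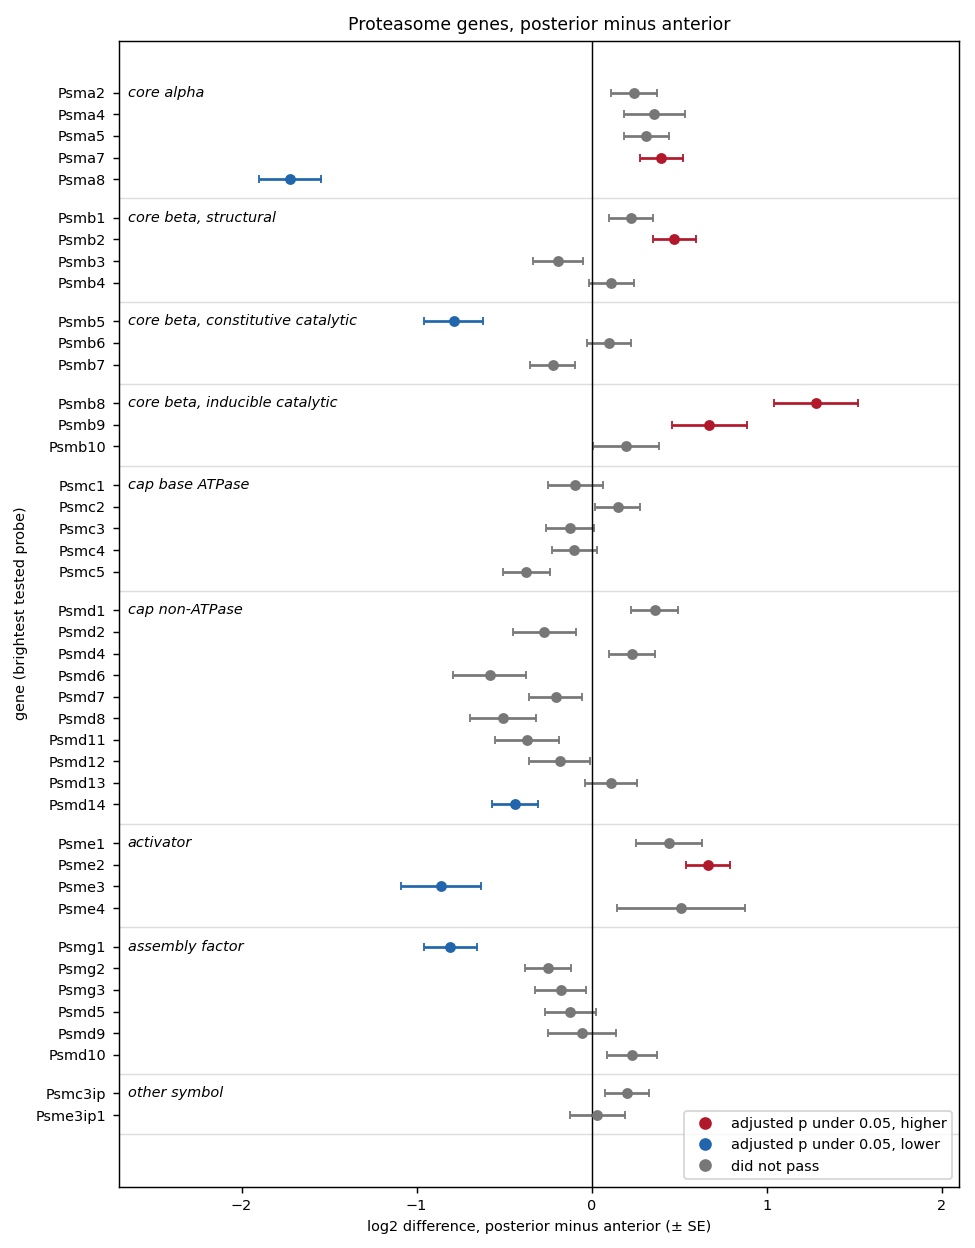
Difference between the groups for each of the 42 genes, posterior minus anterior on the log2 scale, as the estimate of the fit with its standard error, ordered by the part of the proteasome that a gene belongs to. Red and blue points passed the threshold as higher and lower, and Psma8 (-1.72) and Psmb8 (1.28) lie farthest from 0.

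The members' differences were also smaller in size. The median size was 0.25 on the log2 scale for the proteasome genes and 0.46 for all genes tested. Of the 42 genes 32 (76.2%) differed by less than 0.5, against 53.2% of all genes. Only Psma8 and Psmb8 passed with at least 2-fold, against 19.5% of all genes. Many members are bright, and 29 of them are among the 2477 genes with a mean log2 intensity of at least 8.73. Of those 29, 4 passed (13.8%), while 44.4% of the 2477 did. Of the 13 dimmer members 6 passed (46.2%), against 48.4% of all genes below that level. In 14 of the 42 genes every posterior array lay above every anterior array, against 31.4% of all genes, and in 10 every one lay below, against 26.9%.

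**Figure D2:**
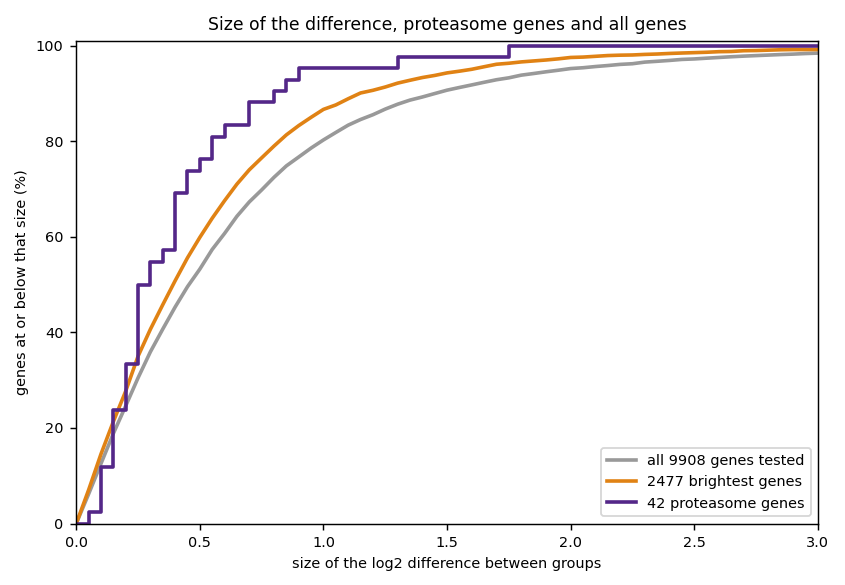
Percentage of genes (vertical axis) whose log2 difference between the groups has at most the size on the horizontal axis, for the 42 proteasome genes, all genes tested and the 2477 brightest genes. At a size of 0.5 the proteasome curve stands at 76.2% and that of all genes at 53.2%.

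Counts of calls depended on the processing. With arrays scaled to a common median in place of quantile normalization, the median of all genes moved by 0.17, and 72.1% of all calls were higher, against 54.7%. Relative to that median the proteasome genes lay at -0.19, and 3 (Psmb8, Psmb9 and Psme2) were higher and 1 (Psma8) lower. The number of higher genes was also 3 without anterior replicate 1 or 3 and without posterior replicate 1, 2 or 3, and 5 without anterior replicate 2. The number of lower genes fell to 3 without posterior replicate 3. With the second-brightest probe of genes that have several, 9 were lower. The share of proteasome genes called was below that of all genes in each of 17 alternatives, at 9.52% to 33.3% against 34.2% to 52.3%.

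Among the core's alpha subunits, 4 general ones had values above 0 and 1 germ cell subunit was far lower. Psma8 encodes the alpha subunit that takes the place of the Psma7 product in male germ cells. Its log2 intensities were 7.43, 7.24 and 7.77 on the anterior arrays and 5.90, 5.55 and 5.83 on the posterior arrays. All anterior values lay above all posterior values, and each array detected it. The fit gave a 3.30-fold lower level in posterior (log2 -1.72, SE 0.18, limma adjusted p = 0.000117). Its other probe gave -1.96 (SE 0.15). The call held in all 17 alternatives, with differences between -1.96 and -1.16.

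Psma7, its counterpart in other cells, lay at 11.32, 11.28 and 11.20 in anterior and 11.69, 11.59 and 11.71 in posterior. The groups did not overlap, and the difference was 0.40 (SE 0.13, limma adjusted p = 0.0313), or 1.32-fold. The second probe of Psma7 gave 0.46 (SE 0.12). This small difference lost the threshold with median scaling (0.27, adjusted p = 0.39), and without any 1 of the 6 replicates (adjusted p 0.0572 to 0.107). Psma2, Psma4 and Psma5, further members of the alpha ring, had differences of 0.24, 0.36 and 0.31 and did not pass (adjusted p = 0.173, 0.132 and 0.0807). In each of these 3 genes all posterior arrays lay above all anterior arrays, as in 31.4% of all genes. With median scaling their differences were 0.03, 0.21 and 0.10. Psma5 passed as higher in 5 of 17 alternatives.

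Of the beta subunits without a catalytic site Psmb2 was higher. It lay at 11.74, 11.81 and 11.65 in anterior and 12.25, 12.21 and 12.16 in posterior, with no overlap. The difference was 0.47 (SE 0.12, limma adjusted p = 0.0152), or 1.39-fold, and its second probe gave 0.44 (SE 0.12). Psmb2 did not pass with median scaling (0.31, adjusted p = 0.338) or without posterior replicate 2 (0.0571). Psmb1, Psmb3 and Psmb4, also beta genes without a catalytic site, had differences of 0.22, -0.19 and 0.11 and did not pass. The value of Psmb4 changed sign with median scaling (-0.13).

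Of the 3 constitutive catalytic genes 1 (Psmb5) was lower and 2 did not pass, beside 21.5% of all genes called lower. Psmb5, which encodes the chymotrypsin-like subunit, lay at 9.00, 9.23 and 8.64 in anterior and 8.17, 8.21 and 8.13 in posterior. Every posterior array lay below every anterior array, and the posterior arrays lay close together. The difference was -0.79 (SE 0.17, limma adjusted p = 0.00568), 1.73-fold lower. It was past the threshold in 16 of 17 alternatives and not with median scaling (-0.58, adjusted p = 0.123).

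Psmb6, the gene of the caspase-like subunit, lay at 12.11, 12.12 and 12.004 in anterior and 12.25, 12.13 and 12.15 in posterior. These values nearly touch, and the difference of 0.10 (SE 0.13) did not pass (limma adjusted p = 0.569), with a sign that changed under median scaling (-0.06). Psmb7, the gene of the trypsin-like subunit, lay at 12.03, 12.10 and 12.02 in anterior and 11.95, 11.79 and 11.75 in posterior. All its posterior values were the lower ones, but the difference of -0.22 (SE 0.13) did not pass (limma adjusted p = 0.198). Of its 3 dimmer probes 1 passed as lower (-0.66, SE 0.18).

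The inducible catalytic genes were higher in posterior for 2 of 3, beside 25.9% of all genes called higher. Psmb8, which encodes the subunit that replaces the Psmb5 product, lay at 5.57, 5.57 and 5.28 in anterior and 7.04, 6.18 and 7.06 in posterior. All posterior arrays lay above the anterior ones, and posterior replicate 2 was the lowest of them. The difference was 1.28 (SE 0.24, limma adjusted p = 0.00306), 2.43-fold higher. A second, dimmer Psmb8 probe, which 1 anterior and 2 posterior arrays detected, had a difference of 0.22 (SE 0.14) and did not pass (adjusted p = 0.25). The difference of Psmb8 was 0.78 without background correction and 0.75 with the mean of both probes, past the threshold in each case.

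Psmb9, whose product replaces that of Psmb6, lay at 5.15, 5.83 and 5.56 in anterior and 6.38, 5.86 and 6.32 in posterior. The groups did not overlap, though the highest anterior value and the lowest posterior value nearly met. The difference was 0.67 (SE 0.21, limma adjusted p = 0.0329), 1.59-fold higher. The call was lost without anterior replicate 1 (0.50, adjusted p = 0.112) or 3 (0.70, adjusted p = 0.0589) and without posterior replicate 1 (0.56, adjusted p = 0.102) or 3 (0.61, adjusted p = 0.1). Without background correction the difference was 0.37, still past the threshold. Psmb10, whose product replaces that of Psmb7, lay at 8.72, 8.82 and 8.37 in anterior and 9.00, 8.50 and 8.98 in posterior. Its groups overlapped, and the difference of 0.19 (SE 0.19) did not pass (limma adjusted p = 0.446). Its second probe gave -0.14 (SE 0.21).

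The change of each inducible gene was set against that of its constitutive counterpart on the same arrays, which shows unequal change and no ratio of subunits. Read through the brightest probe of each gene, Psmb8 gained 2.07 log2 units on Psmb5, Psmb9 0.57 on Psmb6 and Psmb10 0.42 on Psmb7. Other probes of these genes were not used. An exact two-sided permutation test over the 6 samples gave p = 0.1 for the first and the second pair and p = 0.2 for the third. With 3 samples against 3, 0.1 is the smallest p that can be reached. Adjusted over the 3 pairs the values were 0.15, 0.15 and 0.2.

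**Figure D3:**
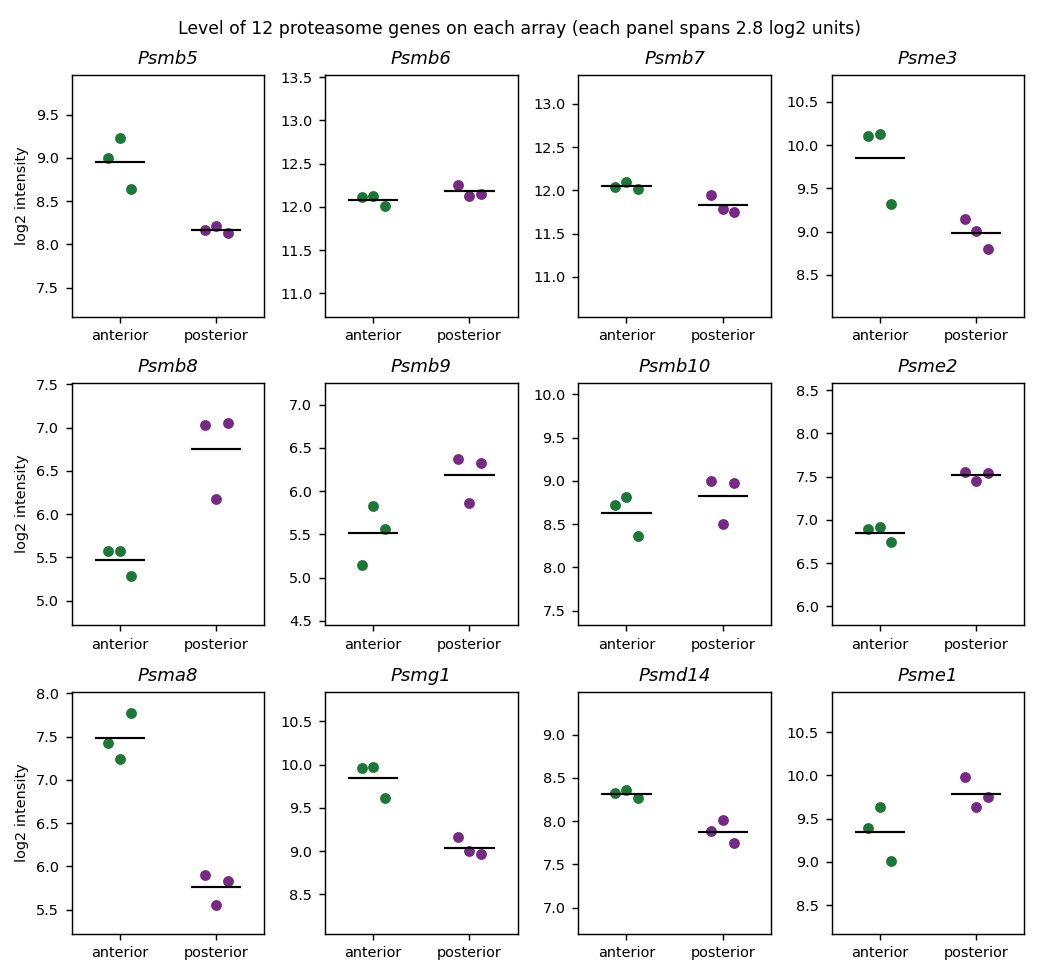
Normalized log2 intensity of 12 proteasome genes on each array, 3 anterior (green) and 3 posterior (purple), with the group mean as a line; every panel spans the same range. Psmb8 and Psme2 lie higher on all posterior arrays, and Psmb5, Psme3, Psmg1, Psmd14 and Psma8 lower.

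Of the 4 activator genes 1 (Psme2) was higher, 1 (Psme3) lower and 2 did not pass, beside 47.4% of all genes called. Psme2 (PA28 beta) lay at 6.89, 6.92 and 6.74 in anterior and 7.55, 7.46 and 7.54 in posterior. The groups were well apart, and both were tight. The difference was 0.66 (SE 0.13, limma adjusted p = 0.00338), 1.58-fold higher, and it passed in all 17 alternatives.

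Psme1 (PA28 alpha), whose product forms a ring with that of Psme2, lay at 9.39, 9.64 and 9.01 in anterior and 9.98, 9.63 and 9.75 in posterior. One anterior array reached the lowest posterior one, and the difference of 0.44 (SE 0.19) did not pass (limma adjusted p = 0.089). Its second probe passed as higher (0.58, SE 0.20, adjusted p = 0.0444). Psme3 (PA28 gamma) lay at 10.10, 10.12 and 9.32 in anterior and 9.15, 9.01 and 8.80 in posterior. Anterior replicate 3 was close to the posterior values without overlapping them. Psme3 was 1.82-fold lower (log2 -0.86, SE 0.23, limma adjusted p = 0.0156). It did not pass with median scaling (adjusted p = 0.0795), without anterior replicate 1 (0.0644) or without posterior replicate 2 (0.0503) or 3 (0.0549). Psme4, which encodes the activator PA200, lay at 10.94, 9.57 and 11.08 in anterior and 11.19, 11.21 and 10.72 in posterior. Anterior replicate 2 stood far below the other 5 arrays, and the difference of 0.51 (SE 0.37) did not pass.

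Of the 5 genes named for the immunoproteasome and PA28 (Psmb8, Psmb9, Psmb10, Psme1 and Psme2), 3 were higher and 2 did not pass, beside 25.9% of all genes called higher, with a median of 0.66 beside 0.03 for all genes. All 5 were detected on all 6 arrays. The anterior values of Psmb8 (5.28 to 5.57) and Psmb9 (5.15 to 5.83) lay near the lowest detected signals, 4.76 to 4.91 on those arrays. In a list of antigen presentation and interferon genes with 11 named, 7 were higher and 1 (Ifngr2) lower, beside 25.9% and 21.5% of all genes, and 2 of the 7 (Tap1 and Tap2) were not detected on any anterior array. B2m, the light chain of MHC class I, lay at 7.63, 7.97 and 8.22 in anterior and 10.04, 9.78 and 9.89 in posterior, 3.90-fold higher. Tap2, the partner of Tap1 in the peptide transporter, was at least 4.55-fold higher and Tap1 at least 1.63-fold, as bounds. For these bounds the anterior level was taken, array by array, as the probe's value or the lowest detected signal, whichever was higher. Only the posterior arrays let these genes into the test. In the order of protein-coding genes on chromosome 17 in RefSeq, Psmb9, Tap1, Psmb8 and Tap2 follow one another. Irf1, an interferon-induced activator of these genes, had a difference of 0.62 and did not pass (limma adjusted p = 0.0572), and Stat2 and Irf9 had 0.12 and 0.01.

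Immune cells carry the immunoproteasome constitutively, and 3 of 8 listed immune markers had a named probe. Cd74 was not detected on any anterior array and lay at 5.86, 6.07 and 5.86 in posterior. H2-Ab1 was also higher in posterior, while Cd3e was lower. Their summed linear intensity was 137 to 180 on the anterior arrays and 143 to 147 on the posterior arrays. Since the 3 markers moved in opposite directions, this sum says nothing about the amount of immune RNA. Their part in the result was not tested.

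Beside 47.4% of all genes called, the regulatory cap held 1 called gene among 15, Psmd14. It encodes the enzyme that cuts ubiquitin chains off the substrate. Its level was 8.33, 8.36 and 8.26 in anterior and 7.88, 8.01 and 7.75 in posterior. The groups did not overlap, and Psmd14 was 1.35-fold lower (log2 -0.44, SE 0.13, limma adjusted p = 0.0268). The second probe gave -0.68 (SE 0.13). With the brightest probe the call was lost with median scaling (-0.20, adjusted p = 0.578), without anterior replicate 1 (0.0749) or 2 (0.0639), and without posterior replicate 1 (0.0691) or 3 (0.112).

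The remaining 14 cap genes did not pass. Of all 15, 11 had a difference below 0 and 4 above, with a median of -0.18, while the 15 genes of the core had 11 above 0 and 4 below, with a median of 0.22. Without the 3 inducible genes the core had 8 above 0 and 4 below, with a median of 0.17. Among all 9908 genes tested, 5154 had a difference above 0 and 4754 below. With median scaling Psmb4 (-0.13) and Psmb6 (-0.064) of the core moved below 0. In the cap Psmc2 moved below 0 (-0.0086) and Psmd2 above 0 (0.013). The difference between core and cap was not tested. Among the ATPases, which unfold the substrate, differences ran from -0.37 (Psmc5, adjusted p = 0.0527) to 0.15 (Psmc2). The groups overlapped in 4 of the 5 genes, beside 4134 of all 9908 genes tested. Psmc5 passed as lower in 5 of 17 alternatives. Psmc2 had an anterior level of 11.99 ± 0.06 (SD, n = 3) and a posterior level of 12.14 ± 0.10 (SD, n = 3), and its sign changed with median scaling (-0.0086). Psmc4 had an anterior level of 11.72 ± 0.10 (SD, n = 3), with 11.63 ± 0.07 (SD, n = 3) as the posterior one.

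Of the other cap genes, Psmd1, which encodes a large scaffold subunit, had the largest value above 0. It lay at 12.53, 12.51 and 12.62 in anterior and 12.94, 13.04 and 12.76 in posterior, and the difference of 0.36 (SE 0.14) did not pass (limma adjusted p = 0.0608). It passed as higher in 5 of 17 alternatives, among them the authors' values (adjusted p = 0.0228), and was 0.09 with median scaling and 0.07 with the mean of its probes. Its 2 dimmer probes had 0.21 (SE 0.15) and -0.35 (SE 0.15, adjusted p = 0.0856), and in the latter every posterior array lay below every anterior array. Psmd4, the gene of a ubiquitin receptor, had a difference of 0.23 (SE 0.13, limma adjusted p = 0.19). At the other end Psmd6 and Psmd8, genes of subunits of the cap's lid, had -0.58 and -0.51 (adjusted p = 0.0532 and 0.0566). Psmd6, which 3 anterior arrays and 1 posterior array detected, passed as lower in 5 of 16 alternatives. Psmd2, Psmd7, Psmd11, Psmd12 and Psmd13 had differences from -0.37 to 0.11.

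Of 6 factors that assemble the proteasome 1 (Psmg1) was lower and 5 did not pass, beside 47.4% of all genes called. Psmg1, which pairs with the Psmg2 product to build the alpha ring, lay at 9.96, 9.97 and 9.61 in anterior and 9.16, 9.00 and 8.96 in posterior. No posterior array reached an anterior one. Psmg1 was 1.75-fold lower (log2 -0.81, SE 0.15, limma adjusted p = 0.00293), and it passed in 16 of 17 alternatives, the exception being median scaling (adjusted p = 0.052). Psmg2 had 3 probes. Its brightest had a difference of -0.25 (SE 0.13, limma adjusted p = 0.162) and did not pass, while the 2 dimmer ones passed as lower (-0.58 and -0.83, SE 0.14 and 0.16). In all 3 probes every posterior array lay below every anterior array. Psmg3, Psmd5 and Psmd9, further chaperones of core or cap, had -0.18, -0.12 and -0.05, and all 3 changed sign with median scaling. Psmd10, the gene of the chaperone gankyrin, had 0.23 (SE 0.14) in its brightest probe, with every posterior array above every anterior array, and 0.10 and -0.21 in its other probes. The other 2 symbols, Psmc3ip and Psme3ip1, had 0.20 and 0.03 and did not pass.

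Probes of the same gene did not always give the same call. Of 20 genes with several tested probes, 13 had the same call in all probes, 7 had some past the threshold and others not, and 0 had opposite calls. The 7 are 35%, near the 29.2% of all 3560 genes with several probes, of which 22 had opposite calls. In 6 of the 20 (30%) the brightest probe did not pass while a dimmer one did, against 11% of 3560 such genes in all. The dimmer probe was lower in Psmb7, Psmc2, Psmd7, Psmd12 and Psmg2 and higher in Psme1. Psmc2 had 0.15 in its brightest probe and -0.52 (SE 0.18, adjusted p = 0.0413) in a probe near the detection limit. Psmd12 had -0.18 in its brightest probe and -0.96 (SE 0.15) in the other. Posterior values of that other probe (4.81 to 5.14) also lay near the lowest detected signals on those arrays (4.70 to 4.76). Counted by probe, 8 of 68 were higher and 14 lower, against 21.2% and 21.4% of all 18242 probes tested.

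**Figure D4:**
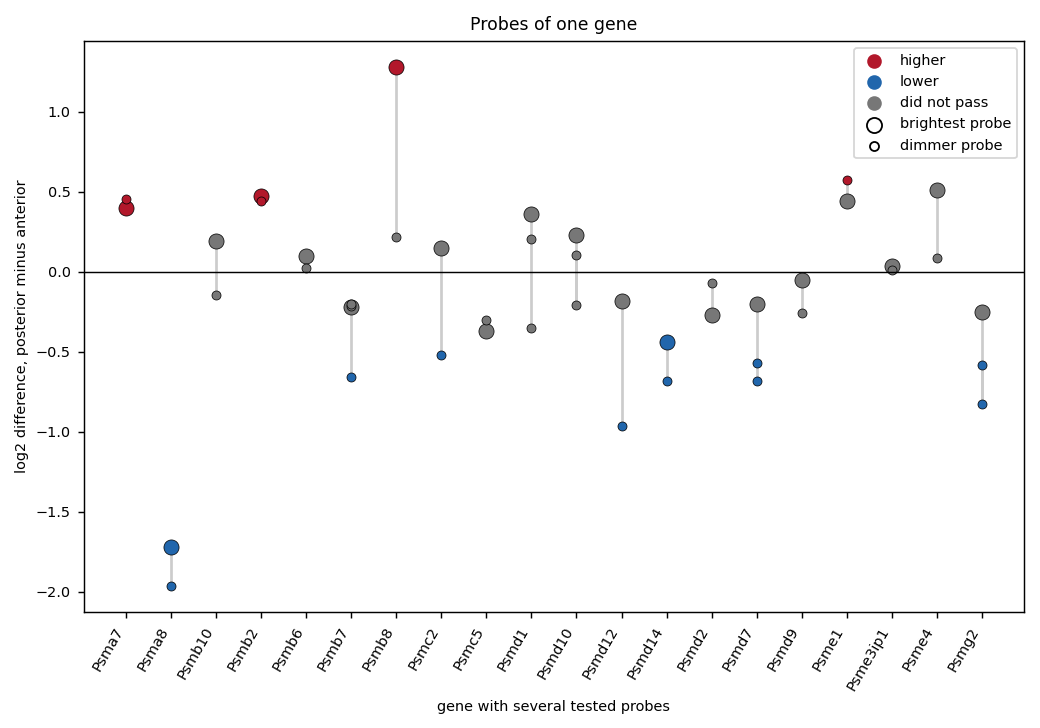
Log2 difference, posterior minus anterior, of every tested probe of the 20 proteasome genes that have several, with the brightest probe as the large point and colours for the call. Red and blue never meet within a gene, and the dimmer probes of Psmb7, Psmc2, Psmd7, Psmd12 and Psmg2 passed as lower where the brightest did not.

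Other genes of the ubiquitin and proteasome pathway are given by list, beside the 47.4% of all genes called. Of 5 named proteasome partners, Usp14, which encodes a deubiquitinase of the cap, was lower (log2 -0.52, SE 0.14, limma adjusted p = 0.0175) and 4 did not pass. Pomp, the maturation factor of the core, had a difference of 0.09 (SE 0.13). Of 9 shuttle and unfoldase genes 1 was higher and 2 lower. Vcp, the gene of the unfoldase p97, lay at 11.88, 11.72 and 11.89 in anterior and 12.51, 12.86 and 12.87 in posterior, 1.89-fold higher. Rad23b and Ubqln4, which encode shuttles of ubiquitinated proteins, were lower (-0.51 and -0.69). Of 7 genes for ubiquitin conjugation Cul1 was higher (0.54) and Ube2s lower (-0.87).

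The regulators of subunit transcription were mixed. Of 8 named, 2 were higher, 2 lower and 4 did not pass, beside 47.4% of all genes called. Nfe2l1, whose product NRF1 raises proteasome genes when the proteasome is inhibited, had -0.18 (SE 0.15, limma adjusted p = 0.367). Nfe2l2, the gene of NRF2, lay at 6.49, 6.23 and 6.97 in anterior and 5.83, 5.45 and 5.76 in posterior, 1.85-fold lower, and Keap1, the inhibitor of NRF2, was higher by 1.02 on the log2 scale. Mafg, a partner of both factors, was lower (-0.44), and Nfyc, a subunit of the CCAAT-binding factor, was higher (0.43).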

How the data were processed

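Trizol extraction, DNase treatment and a column cleanup gave total RNA, from which biotin-labelled cRNA was made, per the labels' protocols. The deposited signal table gives a linear intensity for 45281 probes on each array, not background subtracted or normalized, and per the file headers a detection p-value. The authors' value table holds log2 values of 18312 probes, which equal quantile-normalized log2 intensities to within 5e-09. Of tools, the submitters' processing notes give limma, with no version. Arrays give no read depth, and their number, 3 per group, limits the precision.

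The intensities were normalized with neqc (offset of 16) of limma 3.58.1 in R 4.3.3, and 18242 probes detected at a p under 0.05 by at least 3 arrays were tested with lmFit and eBayes, with Benjamini-Hochberg adjustment over all of them and a threshold of 0.05. The offset shrinks the differences of dim probes. A gene was read through its brightest tested probe, named from the platform annotation (14884 tested probes, 9908 genes). Levels of different probes were not compared. The rule for named genes gives values on every array for the catalytic genes, Psme1, Psme2 and the 8 largest changes past the threshold in each direction, names the 2 brightest members of a class and up to 4 leading members of each list, and leaves the rest to counts and ranges. Array values of Psme4, Psmd1, Cd74, B2m, Vcp and Nfe2l2 were added after they were seen. Alternatives changed the background correction, offset, scaling, detection filter, probe choice, variance model, array weights, replicate block and each replicate, or used the authors' values. Members and lists were chosen with earlier results of these data known. The steps were tested on simulated data, and matplotlib 3.10.9 (Python 3.11.15) drew the figures.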

Additional observations from a re-analysis of the deposited data

How the results depend on the processing

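The 10 genes past the threshold were recomputed under 17 alternatives, 170 values in all, of which 0 changed direction and 27 no longer passed. Psma8 and Psme2 passed in all 17. The number of proteasome genes that were higher was 5 and that of those that were lower 5. Median scaling gave 3 and 1, the mean of a gene's probes 8 lower, and the second-brightest probe, an alternative chosen after seeing the data, 9 lower and a median difference of -0.11. Leaving out 1 replicate gave 3 to 5 higher and 3 to 6 lower. The cause was not tested. The median difference otherwise lay between -0.10 and 0.07, and of the 5 immunoproteasome and PA28 genes 2 to 4 passed. With the replicate block 3 were higher (Psma7 and Psmb9 lost, adjusted p = 0.0504 and 0.0579) and 7 lower. Same-numbered arrays deviated together at r = 0.29, 0.16 and -0.08. Differently numbered arrays were not compared, so these values do not show whether the numbers pair the samples. Signs changed only among genes that had not passed. With median scaling these were Psmb4 (-0.13), Psmb6 (-0.064), Psmc2 (-0.0086), Psmd2 (0.013), Psmd5 (0.16), Psmd9 (0.20) and Psmg3 (0.027). Psmc2 had -0.19 with the mean of its probes and -0.52 with the second-brightest one, with which Psmb10 had -0.14 and Psmd10 -0.21. Leaving out 1 replicate gave Psmc1 -0.18 to 0.0073, Psmd13 -0.0095 to 0.19, Psmd9 -0.20 to 0.099 and Psme3ip1 -0.075 to 0.14. Signal over background limits Psmd6 and the second Psmb8 probe, which some arrays did not detect (lowest detected signals 4.70 to 4.91). The brightest Psmb8 probe and Psmb9 were detected on all arrays but were dim in anterior (5.28 to 5.57 and 5.15 to 5.83).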

Other observations

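In each of Psmb8, Psmb9, Psmb10, Psme1 and Psme2 posterior replicate 2 was the lowest of the 3 posterior arrays. This was so in 6 of the 7 antigen presentation and interferon genes that were higher. Among those 6, H2-D1 was all but tied between posterior replicates 2 and 3 (8.9025 and 8.9027). Among all 2571 genes that were higher, posterior replicate 2 was the lowest in 23.8%, and among all 9908 genes tested in 28.5%. The latter share is given because Psmb10 and Psme1 did not pass. On the anterior side replicate 3 was the lowest in 4 of the 5. This was so in 31.2% of all genes that were higher and 39.1% of all genes tested. Of the 7 antigen presentation and interferon genes, 2 were lowest on anterior replicate 3 and 4 on anterior replicate 1. The pattern was noticed in the data, its genes are not independent of each other, and no test is given.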
